A study of Danio rerio with 4 samples.

Results

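miR-219 and miR-338 are the miRNAs best known from oligodendrocytes, the cells that wrap axons of the central nervous system in myelin. They were taken from a table of 245 zebrafish miRNAs as every entry with either number in its name, whatever its letter or arm. The table held 2 such entries, 1 for each miRNA, and neither entry name carried an arm. The small RNA came from whole Tuebingen wild-type larvae at 6 days post fertilization, with 1 library per condition, each made from pooled larvae. The conditions were a blank control (labelled wildtype, with no treatment named), a vehicle control that received the solvent DMSO, and BDE47 at a low (5 μg/L) and a high (500 μg/L) concentration. The libraries are called blank, vehicle, low BDE47 and high BDE47 below. BDE47 (2,2',4,4'-tetrabromodiphenyl ether) is a brominated flame retardant, and both BDE47 solutions also contained DMSO.

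A miRNA is a short RNA that guides a silencing complex to messenger RNAs that pair with its seed, which are bases 2 to 8 of the miRNA, and lowers their translation or stability. In mouse, miR-219 and miR-338 rise as oligodendrocyte precursors stop dividing and form myelin, and they repress genes that hold the precursors in the proliferating state. miR-219 has also been described in neurons. In zebrafish, miR-219 has a role in neural progenitors, and myelination of the central nervous system is under way in larvae of this age. The mature sequences of both miRNAs are not printed here, and myelin messenger RNAs were not analysed here.

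Each name covers several genes. The RefSeq annotation of the GRCz12tu assembly lists 3 genes for miR-219 (mir219-1, mir219-2 and mir219-3) and 3 for miR-338 (dre-mir-338-1, dre-mir-338-2 and mir338-3). In that annotation, dre-mir-338-1 lies within the bounds of aatkb and mir338-3 within those of aatka, the zebrafish copies of a kinase gene whose mammalian counterpart also hosts miR-338. dre-mir-338-2 overlaps the annotated gene LOC137496810 without lying within it, and lies between the coding genes pvalb2 and bhlha15. Of the miR-219 genes, none lies within another annotated gene. The nearest coding neighbours of mir219-1 are urm1 and cercam. The table gives 1 value per miRNA name, so the share of each gene in a value is not known.

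The values are read counts that were divided by 1 size factor per library, and each value could be read back as a whole number of reads. The listed miRNAs held between 8858169 and 10357704 reads in a library. The 95% intervals given with the values come from these reads. Because PCR can copy a molecule many times, reads are not independent of each other, and such intervals can be too narrow. They hold the error of counting reads and nothing else. With 1 library per condition, no difference has a replicate check. Every statement on a difference below therefore compares libraries and not conditions. In RNA of whole larvae, fewer cells of a type and less RNA per cell cannot be told apart. Markers of several organs were present in all 4 libraries, with miR-122 of liver between 4434 and 5501 normalized counts, miR-1 of muscle between 816 and 1147, and miR-124 of neurons between 1823 and 3248.

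miR-219 was high in 1 library. It had 7323 normalized counts in the vehicle library, from 7992 reads. The blank library held 3408 normalized counts (3178 reads) and the low BDE47 library held 3111 (3185 reads). The lowest level was that of the high BDE47 library, with 2143 normalized counts from 2030 reads. The vehicle library thus lay apart from the blank library and from both BDE47 libraries. The blank library, with an exact Poisson interval of 3290 to 3528 normalized counts, lay just above the low BDE47 library, with 3004 to 3221. As a share of the listed reads, miR-219 took 0.0787% in the vehicle library (exact Clopper-Pearson interval 0.0770 to 0.0805%) and 0.0218% in high BDE47 (0.0209 to 0.0228%). Among the 234 miRNAs compared, those whose mean over the libraries reached 10 normalized counts, it ranked 76 in the vehicle library, 111 in the blank, 116 in the low BDE47 and lower still in the high BDE47 library.

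miR-338 varied little over the same libraries. It had 2962 normalized counts in the blank library (2762 reads) and 2847 in the vehicle library (3107 reads). The low BDE47 library held 2489 normalized counts (2548 reads) and the high BDE47 library 2444 (2316 reads). Both control libraries lay above both BDE47 libraries, and neither the controls nor the BDE47 libraries differed among themselves beyond counting error. How many of all miRNAs share this order was not counted. The order was not particular to miR-338. For example, miR-218a had 6225, 7207, 5742 and 5811 normalized counts in the blank, vehicle, low BDE47 and high BDE47 libraries. miR-338 ranked 121 in the vehicle library and 123 in the blank library, and somewhat lower in the BDE47 libraries. Its share of the listed reads lay between 0.0246% and 0.0312%.

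**Figure D1:**
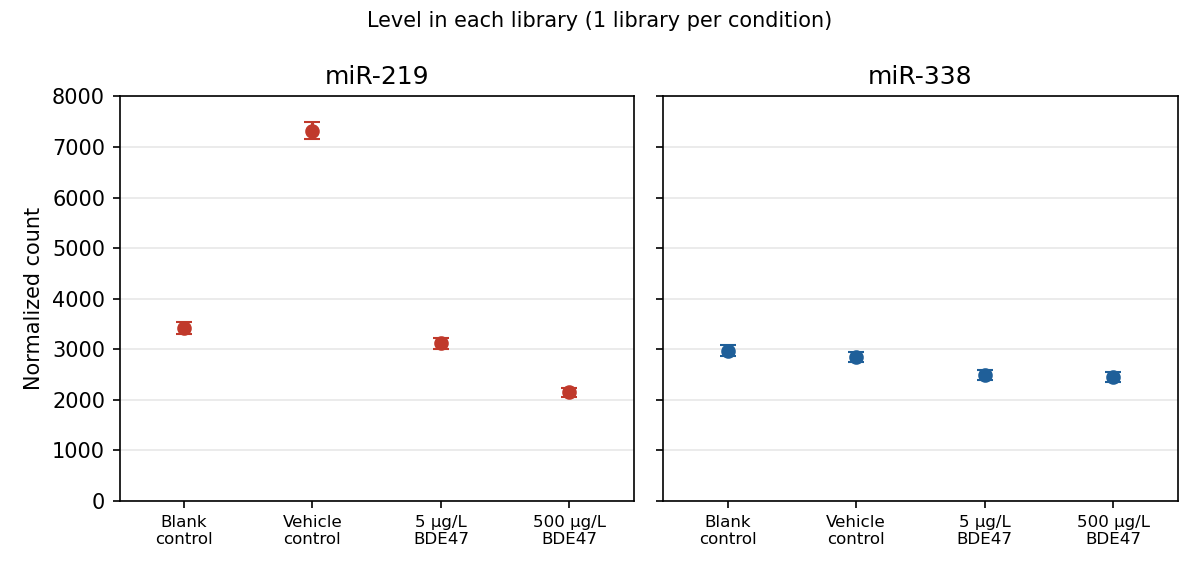
Normalized counts of miR-219 (left) and miR-338 (right) in each of the 4 libraries, with 95% counting intervals from the reads as bars and 1 library per condition. miR-219 stands at 7323 in the vehicle library and between 2143 and 3408 elsewhere, while miR-338 stays between 2444 and 2962.

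The vehicle library was the control library of the study. Against it, miR-219 was 3.42-fold lower in high BDE47 (counting interval 3.26 to 3.59), a log2 ratio of -1.77 (-1.84 to -1.70). This was the third lowest of the 234 log2 ratios. miR-338 was 1.16-fold lower (1.10 to 1.23), a log2 ratio of -0.22 (-0.30 to -0.14), with a place of 75 from the lowest. By size, whatever the direction, this log2 ratio had a place of 136 of 234. So 1 of the 2 miRNAs lay more than 2-fold below the vehicle library, against 7.69% of all 234 miRNAs, whose median log2 ratio was 0.02.

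In the low BDE47 library, miR-219 was 2.35-fold below the vehicle library (2.26 to 2.45), with a log2 ratio of -1.23 (-1.29 to -1.18) and the fourth lowest place of 234. miR-338 was 1.14-fold lower (1.09 to 1.21), with a log2 ratio of -0.19 (-0.27 to -0.12). Here too, 1 of the 2 lay more than 2-fold below the vehicle library, against 2.99% of all miRNAs.

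The blank library shows how far a library without BDE47 lay from the vehicle library. No treatment is named for it, so DMSO and the spread between libraries cannot be told apart in this comparison. miR-219 was 2.15-fold lower in the blank library (2.06 to 2.24), with a log2 ratio of -1.10 (-1.16 to -1.04), again the third lowest of 234. It was the 1 of the 2 miRNAs beyond 2-fold there, where 1.28% of all miRNAs lay more than 2-fold below the vehicle library in this comparison. miR-338 had a log2 ratio of 0.06 (-0.02 to 0.13), so its levels in the control libraries were within counting error of each other. The 3 comparisons share the vehicle library, in which miR-219 was high, and its log2 ratios in them are not independent of each other.

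The BDE47 libraries also received DMSO, so against the blank library BDE47, DMSO and the spread between libraries cannot be told apart. Against the blank library, miR-219 remained lower in high BDE47, by 1.59-fold, with a log2 ratio of -0.67 (-0.75 to -0.59) and a place of 17 from the lowest. In low BDE47 it was 1.10-fold below the blank library (1.04 to 1.15), with a log2 ratio of -0.13 (-0.20 to -0.06) and a place of 63. So 0 of the 2 miRNAs lay more than 2-fold below the blank library at the high concentration, against 0.427% of all miRNAs, and 0 of 2 at the low concentration, against 0%. miR-338 was 1.21-fold below the blank library in high BDE47 (1.15 to 1.28) and 1.19-fold in low BDE47 (1.13 to 1.26). By size, its log2 ratio in high BDE47 against the blank library had a place of 80 of 234. For miR-338 the choice of the control library thus moved the log2 ratio by 0.06, and for miR-219 by 1.10. Where no library is shared, miR-219 had a log2 ratio of -1.77 in high BDE47 against the vehicle library beside -0.13 in low BDE47 against the blank library. With the controls exchanged, the values were -0.67 and -1.23.

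Between the BDE47 libraries, miR-219 was 1.45-fold lower in high BDE47 than in low BDE47 (1.37 to 1.54), with a log2 ratio of -0.54 (-0.62 to -0.46). It had a place of 14 from the lowest, and 0 of the 2 miRNAs lay more than 2-fold lower, against 0.855% of all. miR-338 had a log2 ratio of -0.03 (-0.11 to 0.06), within counting error, and of 0.02 when the libraries were scaled to the total of listed values.

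A two-sided exact test after Fisher, run on the reads of each pair of libraries and adjusted by Benjamini-Hochberg over the compared miRNAs, was added after the values were seen. With an adjusted p of 0.05 as its limit, it called both miRNAs between the high BDE47 and vehicle libraries, and with them 79.1% of all miRNAs. Both were also called between the low BDE47 and vehicle libraries, beside 68.8% of all. Of the 2, only miR-219 was called between the blank and vehicle libraries, where 72.6% of all were, and between the BDE47 libraries, where 69.7% were.

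**Figure D2:**
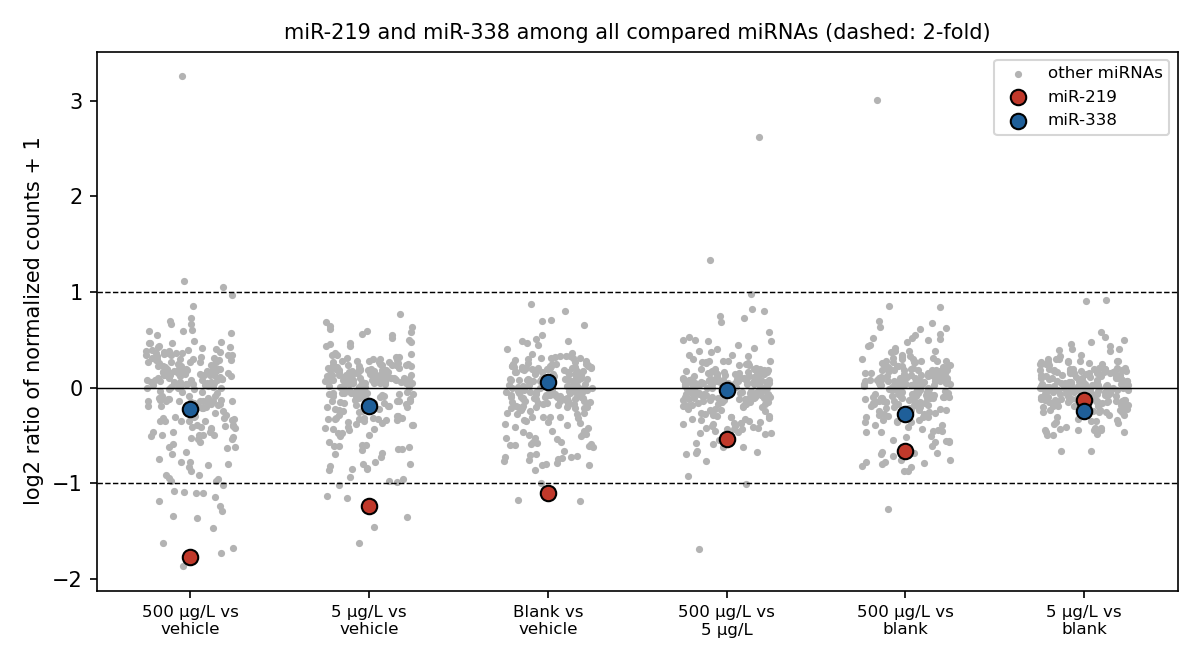
Log2 ratios of normalized counts after adding 1 for miR-219 (red), miR-338 (blue) and the other compared miRNAs (grey, spread sideways for visibility) in 6 comparisons of 2 libraries, with dashed lines at 2-fold. miR-219 lies beyond the lower line in the 3 comparisons with the vehicle library, at -1.77, -1.23 and -1.10, and inside it in the others, and miR-338 lies between -0.28 and 0.06 in all 6.

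The ratio of the 2 miRNAs within a library does not depend on how the libraries are scaled. It is used here only for its change between libraries, since the ligation of adaptors can favour 1 miRNA over another. There were 2.57 reads of miR-219 for each read of miR-338 in the vehicle library (2.47 to 2.68). The blank library had 1.15 (1.09 to 1.21) and the low BDE47 library 1.25 (1.19 to 1.32). In high BDE47 the ratio was 0.877 (0.825 to 0.931), the lowest of the 4 libraries. The log2 change of this ratio against the vehicle library was -1.55 in high BDE47 (-1.66 to -1.45), -1.04 in low BDE47 (-1.14 to -0.94) and -1.16 in the blank library (-1.26 to -1.06). Against the blank library it was -0.39 in high BDE47 (-0.51 to -0.28) and 0.12 in low BDE47 (0.01 to 0.23). The change of the ratio exceeded counting error in each of these comparisons, and its sign was positive only between the low BDE47 and blank libraries.

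Of the other miRNAs, those with the pattern most like miR-219 were miR-142b-5p, miR-190a and miR-301b. Likeness was measured as the Euclidean distance between log2 profiles over the 4 libraries, each centred on its own mean. The distances were 0.14, 0.18 and 0.26. The median distance of all others was 1.32, and the 3 smallest distances lie below it by the way they were picked. miR-142b, a miRNA of blood cells, had 336 normalized counts in the blank library, 671 in the vehicle library, 305 in low BDE47 and 188 in high BDE47. miR-190a had 344, 787, 354 and 254 normalized counts in the same order, and miR-301b, of the miR-130 family, had 1162, 2108, 822 and 635. All 3 were highest in the vehicle library and lowest in high BDE47, as miR-219 was. They were picked for likeness over these same 4 libraries, so this shared order follows from the choice and is no separate result. The miRNA with the pattern most like miR-338 was miR-15a-5p, with 669, 673, 584 and 539 normalized counts. Its distance was 0.08, and the median of all others from miR-338 was 0.40.

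**Figure D3:**
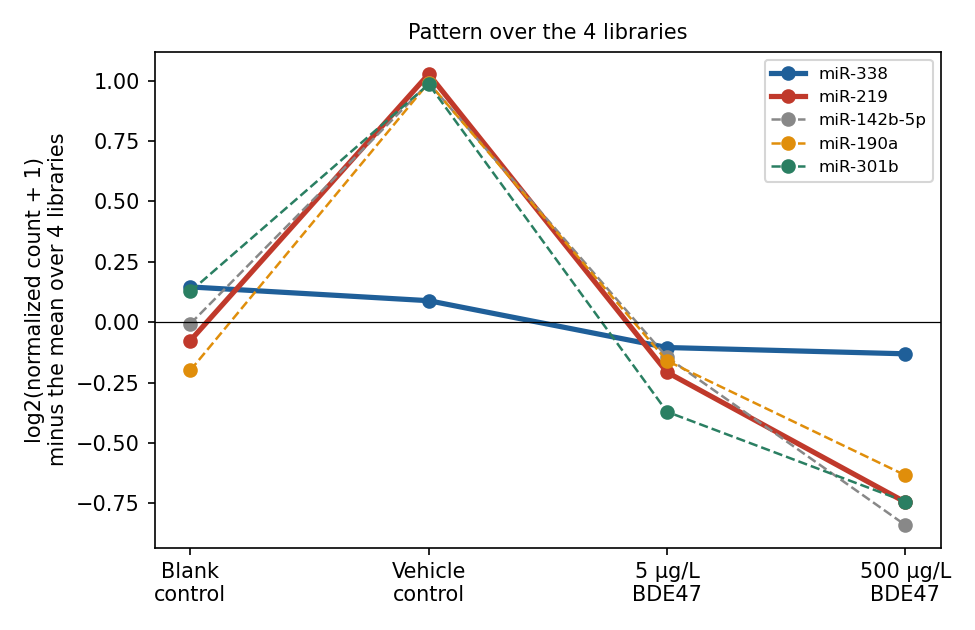
Log2 normalized counts (after adding 1) of miR-219, miR-338 and the 3 miRNAs with the pattern most like miR-219 in the 4 libraries, each minus its own mean over the libraries. Lines join the values of 1 miRNA to guide the eye. miR-142b-5p, miR-190a and miR-301b were picked for this likeness, so that they peak in the vehicle library with miR-219 follows from the choice. miR-338 stays near 0 throughout.

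Other miRNAs described in cells that form myelin were set beside miR-219 and miR-338. This list was miR-9, miR-17, miR-19, miR-23, miR-32, miR-92 and miR-138. In rodents, miR-138 acts in differentiating oligodendrocytes and miR-23a favours myelin formation. Also in rodents, miR-17, miR-19 and miR-92a come from a cluster that promotes the growth of precursors. The whole list had 15 entries in the table and none for miR-32. The list mixes miRNAs of growing precursors with miRNAs of differentiating cells. In RNA of whole larvae the cells behind each value are not known. Its counts and medians therefore describe the list and not a cell type. Between the high BDE47 and vehicle libraries, 1 of the 15 lay more than 2-fold lower and 0 higher, against 7.69% and 1.28% of all miRNAs, 12 lay within 1.5-fold, against 185 of all 234, and the median log2 ratio was 0.07, against 0.02 over all. The entry beyond 2-fold was miR-19a-5p, with 248 normalized counts in the blank library, 417 in the vehicle library, 272 in low BDE47 and 193 in high BDE47, a log2 ratio of -1.11 (-1.37 to -0.86). It too was highest in the vehicle library and lowest in high BDE47. It was named for lying more than 2-fold lower between these 2 libraries, which sets much of that order. The highest log2 ratio of the list was that of miR-19d, at 0.69, with 7351, 4501, 6899 and 7270 normalized counts in the same order. The vehicle library was the low one for miR-19d, and its log2 ratio in high BDE47 against the blank library was -0.02. miR-138 had 37058 normalized counts in the blank library, 29048 in the vehicle library, 37382 in low BDE47 and 29234 in high BDE47. The vehicle and high BDE47 libraries were thus level for miR-138, with a log2 ratio of 0.01 (-0.01 to 0.03). In the low BDE47 and blank libraries, 0 of the 15 entries lay beyond 2-fold of the vehicle library, where 2.99% and 1.28% of all miRNAs were lower and 0% higher. The medians were 0.08 and 0.18, against 0.02 and -0.03 over all.

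Neuronal miRNAs were set beside them, since miR-219 has also been described in neurons. The list was miR-124, miR-128, miR-129, miR-132, miR-137, miR-153, miR-212 and miR-218, with 13 entries. Between the high BDE47 and vehicle libraries, 1 of the 13 lay more than 2-fold lower and 2 higher, against 7.69% lower and 1.28% higher among all miRNAs. Their median log2 ratio was -0.16, against 0.02 over all, with 8 of 13 within 1.5-fold, against 185 of 234. miR-153a, which acts on synaptic vesicle release in zebrafish, had 12470 normalized counts in the blank library, 20540 in the vehicle library, 11334 in low BDE47 and 9531 in high BDE47, a log2 ratio of -1.11 (-1.14 to -1.07). Its order over the libraries was that of miR-219, but it was named for lying more than 2-fold lower, which sets much of that order. The entries above 2-fold were miR-129-3p, with a log2 ratio of 1.11 (0.97 to 1.26), and miR-132-3p, a miRNA induced by neuronal activity in mammals, with 1.05 (0.96 to 1.15). miR-129-3p had 809, 576, 982 and 1248 normalized counts in the blank, vehicle, low BDE47 and high BDE47 libraries, and miR-132-3p had 1556, 1347, 1865 and 2799. Both were lowest in the vehicle library and highest in high BDE47, an order largely set by their being named for lying more than 2-fold higher. Other entries of these numbers lay inside 2-fold between the high BDE47 and vehicle libraries. Their log2 ratios were 0.60 for miR-129-5p, -0.41 for miR-132-5p, 0.02 for miR-153b and -0.52 for miR-153c. miR-124, which is found in nearly all neurons, had 1968 normalized counts in the blank library, 3248 in the vehicle library, 2340 in low BDE47 and 1823 in high BDE47. Its log2 ratio in high BDE47 was -0.83 (-0.92 to -0.75) against the vehicle library and -0.11 against the blank library. The blank library lay below the vehicle library by a log2 ratio of -0.72. miR-128 was instead higher in both BDE47 libraries than in both controls, with 17579, 24630, 33210 and 31641 normalized counts in the same order. Its log2 ratio in high BDE47 was 0.36 against the vehicle library and 0.85 against the blank library. In low BDE47 against the blank library it was 0.92, the highest of all 234 miRNAs. Of the 13 entries, 7 lay below 0 and 6 above in high BDE47 against the vehicle library. In the low BDE47 and blank libraries, 0 of the 13 lay beyond 2-fold of the vehicle library, against the same 2.99% and 1.28% lower and 0% higher, with medians of -0.22 and -0.20. Against the blank library, 0 of the 13 neuronal entries and 0 of the 15 others lay beyond 2-fold in high BDE47, where 1 of 234 miRNAs was lower and 1 higher. The medians were 0.04 and -0.14, against 0.01 over all.

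**Figure D4:**
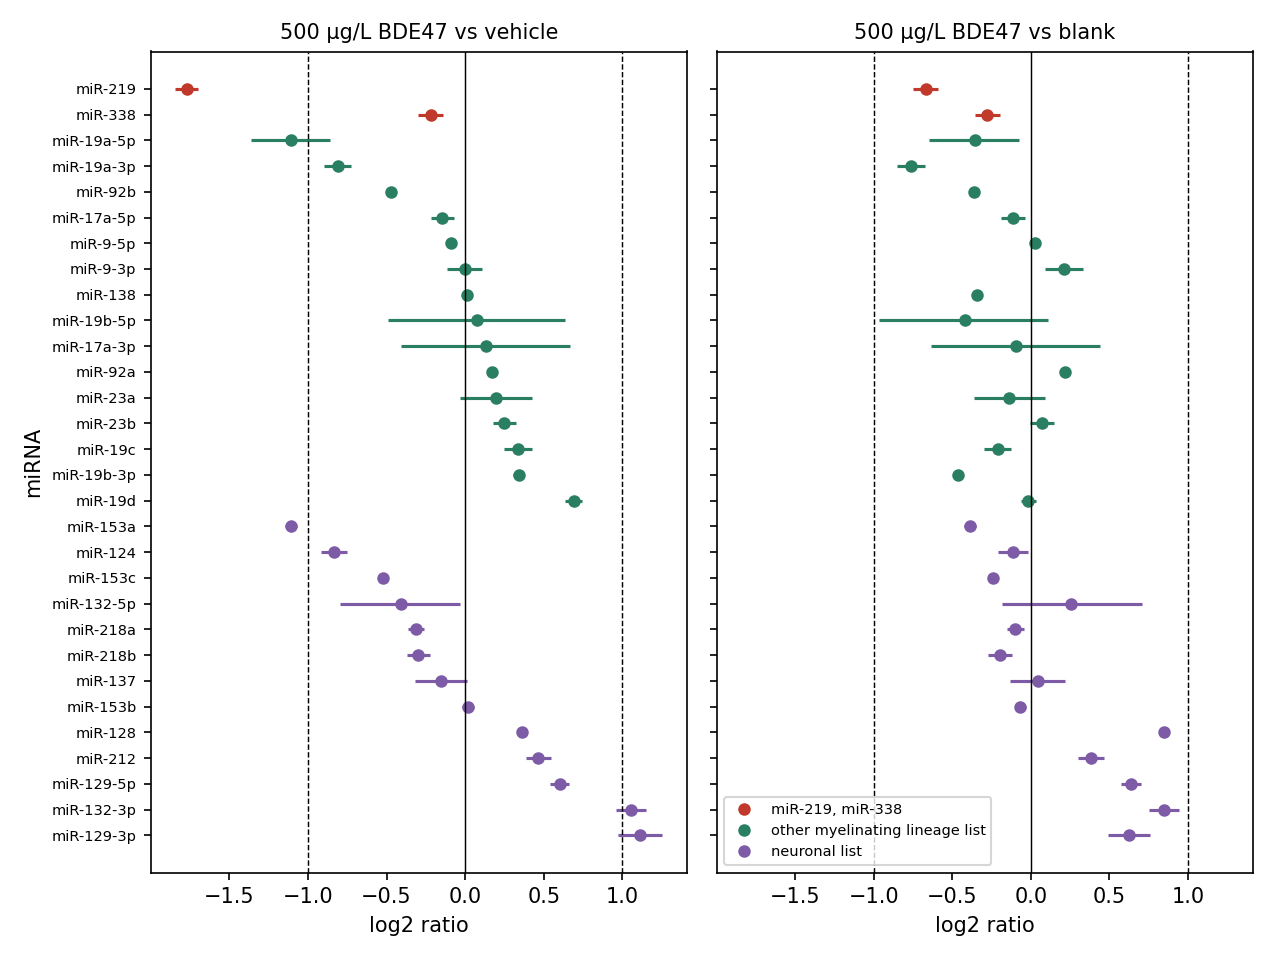
Log2 ratios in high BDE47 against the vehicle library (left) and against the blank library (right), with 95% counting intervals as bars and dashed lines at 2-fold. Shown are miR-219 and miR-338 (red), 15 entries of the list of other miRNAs described in cells that form myelin (green) and 13 entries of the neuronal list (purple). miR-219 has the lowest ratio on the left, at -1.77, and on the right every miRNA shown lies inside the lines.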

How the data were processed

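Small RNA libraries of whole zebrafish larvae were compared, 1 library for each of 4 conditions. The authors removed reads of low quality, short reads and adaptors, and mapped the rest to the zebrafish miRNAs in miRBase and to the zebrafish genome. Reads still left were mapped to rat, mouse and human miRNAs. The paper reports somewhat more unmapped reads in both BDE47 groups than in the control. The listed reads are therefore a part of each library. How reads that fit several miRNAs were counted is not given in the sources used here. The deposited values are a signal: counts of reads, each over a size factor of its library (0.933, 1.09, 1.02 and 0.947 for the blank control, the vehicle control, 5 μg/L and 500 μg/L). This was found from the values, 100% of which were multiples of a single number in each library to within 0.01 of a read, and the factors were those of the median-of-ratios method. This scaling takes the typical miRNA as constant.

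Log2 ratios were computed after adding 1, for the 234 of 245 miRNAs whose mean over the libraries reached 10 normalized counts, with 11 left out. Both miR-219 and miR-338 passed. Intervals of single levels are exact Poisson intervals. Those of ratios between libraries are exact Clopper-Pearson 95% intervals of the reads of both libraries, and for a change in the ratio of the miRNAs exact conditional intervals of the odds ratio. No test of conditions was possible. The text names every entry for miR-219 or miR-338. It names the 3 miRNAs with the pattern most like a member beyond 2-fold at 500 μg/L. Also named are list entries beyond 2-fold, or at the ends of a list, between the 500 μg/L and vehicle libraries. miR-15a-5p, miR-138, miR-124, miR-128, miR-218a and the other entries of miR-129, miR-132 and miR-153 were named after their values were seen. The members and lists were chosen with earlier results of these data known. RefSeq was used for gene names and neighbours only, since its assembly is not the one the authors used. Alternatives were other pseudocounts, filters, scaling, fold and control library, and, added after seeing the data, Fisher's exact test on the reads. The calculations were tested on data simulated with counting error as the only spread. Such a test checks the code and cannot show how libraries of 1 condition would differ. The software was Python 3.11.15 with scipy 1.17.1, numpy 2.4.6, pandas 2.3.3 and, for plots, matplotlib 3.10.9.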

Additional observations from a re-analysis of the deposited data

How the results depend on the processing

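When the blank library served as the control, 0 of the 2 miRNAs lay beyond 2-fold at either concentration, where 1 (miR-219) did against the vehicle library. Of all 234 miRNAs, 2 lay beyond 2-fold of the blank library at 500 μg/L and 0 at 5 μg/L. Against the vehicle library these numbers were 21 and 7. With the mean of both controls, the count of the 2 miRNAs was 1 at 500 μg/L, with a log2 ratio of -1.32 for miR-219, and 0 at 5 μg/L, with -0.79. Of all 234, 12 and 2 lay beyond 2-fold of that mean. Scaling to the total of listed values took the median log2 ratio over the compared miRNAs at 5 μg/L from 0.02 to -0.10. With it, the log2 ratio of miR-338 at 5 μg/L against the vehicle library went from -0.19 to -0.32, and that between the BDE47 libraries from -0.03 to 0.02, and no count ended. A fold of 1.5, a pseudocount of 0.1 or 10, a filter at a mean of 100 and the absence of a filter left the counts of the 2 miRNAs against the vehicle library and between the BDE47 libraries as they were, although at 1.5-fold 49 of 234 miRNAs lay beyond the fold at 500 μg/L and 36 at 5 μg/L. Against the blank library, 1 of the 2 (miR-219 at 500 μg/L, 1.59-fold lower) lay beyond 1.5-fold. Of all 234 miRNAs, 208 lay within 1.5-fold of the blank library at 500 μg/L and 230 at 5 μg/L. Of 48 alternative log2 ratios of the 2 miRNAs, 41 stayed within counting error and 7 moved, 4 of these by a change of the control library. Most of the 41 could not have moved. A filter leaves the log2 ratio of a single miRNA as it is, and at these read numbers a pseudocount hardly alters it. Only scaling and the control library could move a log2 ratio, so the 41 are no measure of robustness.

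Fisher's exact test on the reads was added after seeing the data. It called 2 of the 2 miRNAs at each concentration against the vehicle library, where the fold gave 1. Between the BDE47 libraries it called 1, where the fold gave 0. Against the vehicle library it also called 79.1% of all compared miRNAs in high BDE47 and 68.8% in low BDE47. Between the BDE47 libraries it called 69.7% of all. A call by this test therefore does not set the 2 miRNAs apart from the others. No paired analysis was possible because each condition had 1 library. Counting error was small for both miRNAs, which had at least 2030 reads in each library, and the spread between libraries of 1 condition could not be measured.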
